A study of Mus musculus with 10 samples.

Results

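Nrf2, the transcription factor encoded by *Nfe2l2*, and 9 of its textbook target genes were followed in liver RNA of mice treated with MI-883. The 10 genes were taken by name as one pathway, from a count table of 16647 genes, and all 10 are in it. They are *Nfe2l2*, *Nqo1*, *Gclc*, *Gclm*, *Hmox1*, *Txnrd1*, *Srxn1*, *Osgin1*, *Slc7a11* and *Gsr*. The genes were picked by name, but with earlier results of these data known. Of the 10, 9 passed the minimum of 60 counts summed over the livers that was needed for a test.

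MI-883 was made by the study as a ligand that activates the nuclear receptor CAR and antagonizes PXR. RNA was sequenced from livers of male humanized PXR-CAR-CYP3A4/3A7 mice from Taconic, 5 given MI-883 and 5 given vehicle (control). Both groups carried the human genes in place of the mouse genes of these loci, were 10 to 15 weeks old at the start, and received a high-fat diet (HFD) for 8 weeks before and throughout the treatment. MI-883 was given by gavage at 5 mg/kg in DMSO, PEG300 and corn oil, 3 times per week for 4 weeks, and control mice received the same vehicle. Each library came from the whole-liver RNA of a separate animal. There was no group on a normal diet among the sequenced livers, no female mouse and no other dose.

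Nrf2 is made continuously in hepatocytes and is held back by Keap1, which presents it to a Cul3 ubiquitin ligase for destruction. Oxidants and electrophiles modify cysteines of Keap1, and Nrf2 then accumulates, pairs with small Maf proteins and binds antioxidant response elements in front of its targets. The targets make and recycle glutathione, reduce thioredoxin and quinones, break down heme and supply NADPH, and several conjugating enzymes of drug metabolism are shared targets of Nrf2 and CAR. Because the protein is controlled mainly by its stability, the level of *Nfe2l2* mRNA is not a measure of the activity of Nrf2.

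The core of the antioxidant response element, TGACNNNGC, was searched on both strands of the promoters in RefSeq, 250 bases before to 50 bases after an annotated transcript start, of which a gene can have several. Of the 10 genes, 7 had an entry, and *Gclc*, *Gsr* and *Hmox1* had none. The letters were found in at least 1 promoter of 4 of the 7 genes, against 14% of all 27025 genes with an entry, and in 12.4% of all 32851 promoters. The 4 stretches are printed to show where letters matching this core lie near the genes whose levels are described. They are read on the strand of the gene in build GRCm38.p6, 5′ to 3′, with the match in capitals.
*Nfe2l2*, chr2:75704885-75704913, minus-strand gene: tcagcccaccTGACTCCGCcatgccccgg
*Gclm*, chr3:122245413-122245441, plus-strand gene: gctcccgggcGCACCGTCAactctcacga
*Txnrd1*, chr10:82859104-82859132, plus-strand gene: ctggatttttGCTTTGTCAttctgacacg
*Srxn1*, chr2:152105542-152105570, plus-strand gene: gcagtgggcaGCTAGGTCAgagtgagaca
The match began 240 bases before the transcript start in *Nfe2l2* (position 75704663) and 134 before it in *Gclm* (122245557, inside the gene span given later). In 1 of the 3 *Txnrd1* promoters it began 92 bases before the start (82859206), and in *Srxn1* 28 bases after it (152105524). It lay on the gene's own strand in *Nfe2l2* and on the opposite strand in the other three, where the capitals are its reverse complement. A match of letters is not a measured binding site, and these windows leave out elements farther from the start.

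None of the 9 tested genes passed the test between MI-883 and control livers. Their fold changes were all above 0 on the log2 scale, between 0.0079 for *Txnrd1* and 0.60 for *Nqo1*, with a median of 0.23. Over all 13219 tested genes the median was 0.0045, and 51% of genes were above 0. The groups were compared by edgeR's quasi-likelihood test with Benjamini-Hochberg adjustment over all tested genes and a threshold of 0.05, which called 0.764% of the tested genes higher (101 genes) and 0.265% lower (35 genes) in MI-883-treated livers. The Wald test of DESeq2 called none of the 9 either, against 3.5% of all genes. At an unadjusted P under 0.05, 3 of the 9 genes, *Nqo1*, *Gsr* and *Srxn1*, differed, while 15.6% of all tested genes (2059) did so. MI-883 and control livers overlapped in all 10 genes, whereas 2.05% of tested genes lay wholly above and 1.93% wholly below the control livers. The 9 genes come from the same 10 livers, and their values are therefore not independent of one another.

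Totals of 24014461 to 36221514 counts for control libraries and of 23513665 to 28349963 for MI-883 libraries were obtained, and log2 levels of all tested genes correlated between any pair of livers at r = 0.9746 to 0.9915. Levels are given as CPM, counts scaled to a common library size by TMM, with the S.D. over 5 livers, and a floor of 3 counts was 0.0838 to 0.133 CPM per library, which covers counting error only. The treatment was visible in the 4 listed CAR marker genes, which all rose (*Cyp2b10*, *Cyp2c55*, *Cyp2c65* and *Gadd45b*, log2 fold changes of 4.80, 3.20, 3.59 and 2.54, edgeR adjusted P of 0.00121 or less). *Cyp2c65* had only 7, 6, 0, 1 and 5 counts in control livers 1 to 5, partly under the floor of 3 counts. Its fold change is therefore set against control values near 0. The livers expressed the hepatocyte markers *Alb* and *Ttr* at 56571 ± 4446 and 6465 ± 567 CPM in control animals (S.D., n = 5).

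**Figure D1:**
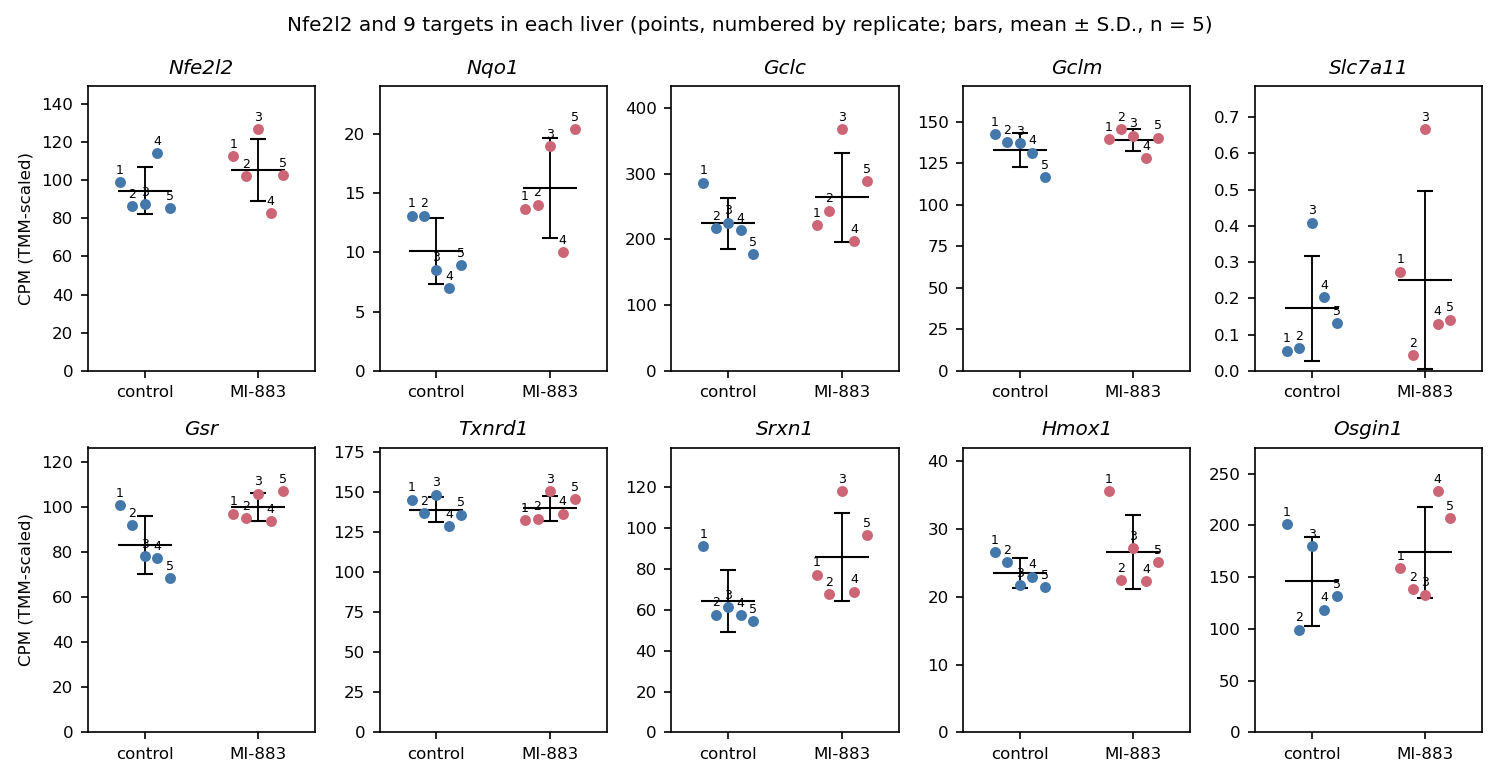
Level of *Nfe2l2* and 9 targets in each liver, in CPM on a linear axis that starts at 0 for each gene. Points are livers, numbered by replicate within the control and MI-883 groups, and bars give the mean ± S.D. (n = 5). The groups overlap in every panel. Among the 9 tested genes, the largest fold changes were those of *Nqo1* (means of 10.1 and 15.4 CPM) and *Srxn1* (64.4 and 85.7 CPM).

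*Nfe2l2* itself (Entrez 18024, chr2:75675513-75704663) had 99.1, 86.2, 87.5, 114 and 85.4 CPM in control livers 1 to 5 and 113, 102, 127, 82.8 and 102 CPM in MI-883-treated livers 1 to 5. The lowest of all 10 values belonged to a treated liver, MI-883 liver 4, and the highest to MI-883 liver 3. The means were 94.5 ± 12.3 and 105 ± 16.0 CPM (S.D., n = 5), a log2 fold change of 0.16 with a standard error of 0.11 (edgeR adjusted P = 0.534). The unadjusted 95% interval of the fold ran from 0.941 to 1.32, and the exact permutation P was 0.294. Without MI-883 liver 3 the log2 fold change was 0.08.

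The genes whose pattern over the 10 livers was nearest to that of *Nfe2l2* were *Rasa1*, a GTPase-activating protein of Ras, *Slc38a6*, a member of the amino acid transporter family SLC38, and *Plk2*, a polo-like kinase. Likeness was the root mean square distance of standardized log2 CPM, which was 0.280, 0.301 and 0.370 S.D., and none of these genes was called in the comparison.

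*Nqo1* (Entrez 18104, chr8:107388225-107403205), the quinone reductase most often used as a readout of Nrf2, showed the largest fold change of the 9 tested genes. Control livers had 13.1, 13.1, 8.54, 6.98 and 8.90 CPM, and MI-883-treated livers 13.7, 14.0, 18.9, 10.01 and 20.4 CPM. Of the treated livers, 4 lay above every control liver, and MI-883 liver 4 lay between control livers 5 and 1. The means of 10.1 ± 2.81 and 15.4 ± 4.22 CPM gave a fold of 1.52 (unadjusted 95% interval 1.11 to 2.08), and a log2 fold change of 0.60 with a standard error of 0.21. An exact permutation test (two-sided, on mean log2 CPM, unadjusted and run for all 10 genes) gave P = 0.0397. Over all tested genes, the adjusted P was 0.192 with edgeR and 0.0894 with DESeq2, so that the difference was not called.

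Glutathione is built in a rate-limiting step by glutamate-cysteine ligase, of which *Gclc* encodes the catalytic and *Gclm* the modifier subunit. *Gclc* (Entrez 14629, chr9:77754535-77794489) had 286, 217, 226, 214 and 178 CPM in control and 221, 244, 367, 198 and 289 CPM in MI-883-treated livers. Control liver 1 was nearly as high as the second highest treated liver, and MI-883 liver 4 was below 4 of the 5 controls. The means were 224 ± 39.2 and 264 ± 67.0 CPM, with a log2 fold change of 0.23 ± 0.16 (standard error, edgeR adjusted P = 0.511). Without MI-883 liver 3 the log2 fold change was 0.09 and without control liver 1 it was 0.34.

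*Gclm* (Entrez 14630, chr3:122245487-122267215) was far more even, at 143, 138, 137, 131 and 116 CPM in control and 140, 145, 142, 128 and 140 CPM in MI-883-treated livers. Control liver 5 stood lowest, and the other 9 livers shared a narrow range. The means were 133 ± 10.1 and 139 ± 6.47 CPM, and the interval of the fold was 0.942 to 1.16 (edgeR adjusted P = 0.692). Its log2 fold change of 0.06 was 0.02 without control liver 5. Its exons overlap a gene on the opposite strand over 4.71% of their length and a pseudogene on the same strand over 3.88%, and the strand setting of the counting is not given in the sources used here.

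*Gsr* (Entrez 14782, chr8:33653238-33698162), glutathione reductase, which returns oxidized glutathione to its reduced form at the cost of NADPH, had 101, 92.0, 78.2, 77.3 and 68.6 CPM in control livers. MI-883-treated livers had 97.1, 95.3, 106, 94.0 and 107 CPM. All 5 treated livers lay above 4 of the 5 controls, and control liver 1 lay within the treated range. The log2 fold change was 0.26 with a standard error of 0.10, the exact permutation P was 0.0556, and the adjusted P was 0.225 with edgeR and 0.152 with DESeq2.

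*Slc7a11* (Entrez 26570, chr3:50364936-50499087) encodes the cystine carrier that feeds glutathione synthesis in many cell types. It was barely present in these livers, with 2, 2, 10, 7 and 3 counts in control and 8, 1, 18, 3 and 4 counts in MI-883-treated livers. Its 58 counts fell below the minimum for testing, and several livers were at or below the floor of 3 counts. At this depth no difference was detectable (exact permutation P = 0.587).

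*Txnrd1* (Entrez 50493, chr10:82833951-82897724), the cytosolic thioredoxin reductase, had 145, 137, 148, 129 and 136 CPM in control and 133, 133, 151, 137 and 146 CPM in MI-883-treated livers. The 2 sets covered almost the same range. The means were 139 ± 7.87 and 140 ± 7.97 CPM, and the 95% interval of the fold was 0.911 to 1.11 (edgeR adjusted P = 0.970). The sign of its fold change turned when any 1 of 3 livers was left out, with log2 fold changes of -0.02 to 0.03 over the 10 omissions.

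*Srxn1* (Entrez 76650, chr2:152105524-152111376) encodes sulfiredoxin, which repairs over-oxidized peroxiredoxins. Control livers had 91.2, 57.6, 61.4, 57.5 and 54.3 CPM, and MI-883-treated livers 77.2, 67.6, 118, 68.9 and 96.7 CPM. Every treated liver lay above control livers 2 to 5, but control liver 1 exceeded 3 treated livers. The means were 64.4 ± 15.2 and 85.7 ± 21.6 CPM, a fold of 1.33 with an unadjusted 95% interval of 1.03 to 1.72. The exact permutation P was 0.0952, and the adjusted P was 0.277 with edgeR and 0.195 with DESeq2. Without control liver 1 the log2 fold change went from 0.41 to 0.57 (edgeR adjusted P = 0.0804), and without MI-883 liver 3 it was 0.27 (edgeR adjusted P = 0.535).

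*Hmox1* (Entrez 15368, chr8:75093618-75100593), the inducible heme oxygenase, is expressed by Kupffer cells, the resident macrophages that clear red cells, as well as by stressed hepatocytes. It had 26.6, 25.1, 21.7, 22.99 and 21.4 CPM in control and 35.6, 22.5, 27.2, 22.3 and 25.1 CPM in MI-883-treated livers. Liver 1 was the highest of each group, and the remaining treated livers were within or close to the control range. The means were 23.6 ± 2.21 and 26.5 ± 5.46 CPM (log2 fold change 0.17, standard error 0.12, edgeR adjusted P = 0.524). Without MI-883 liver 1 the log2 fold change was 0.04.

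The same 2 livers were highest in the summed level of the 9 Kupffer cell markers, at 403 CPM in control liver 1 and 496 CPM in MI-883 liver 1. The sums were 272 to 403 CPM in control and 229 to 496 CPM in MI-883-treated livers, and none of the 9 markers was called or at 0 counts in any liver. MI-883 liver 1 was the highest of its group in 7 of the 9 markers and control liver 1 in 6 of the 9. This was not particular to Kupffer cells. MI-883 liver 1 was also the highest treated liver in the summed markers of stellate cells, endothelial cells and leukocytes (458, 171 and 22.0 CPM). Control liver 1 was not the highest control in those lists, but it was in the bile duct markers (116 CPM). The part of Kupffer cells in the level of *Hmox1* was not tested, and in bulk RNA fewer cells of a type and less RNA per cell cannot be told apart.

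*Osgin1* (Entrez 71839, chr8:119425882-119446257), an oxidative stress-induced growth inhibitor, had 201, 99.3, 180, 118 and 131 CPM in control and 158, 139, 133, 233 and 207 CPM in MI-883-treated livers. It was the only tested gene of the 9 in which MI-883 liver 4 was the highest of its group. The means of 146 ± 42.8 and 174 ± 44.1 CPM differed by less than 1 S.D. of either group (log2 fold change 0.25, standard error 0.20, edgeR adjusted P = 0.577). Leaving out 1 liver gave log2 fold changes from 0.13 without MI-883 liver 4 and 0.15 without control liver 2 to 0.40 without control liver 1.

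**Figure D2:**
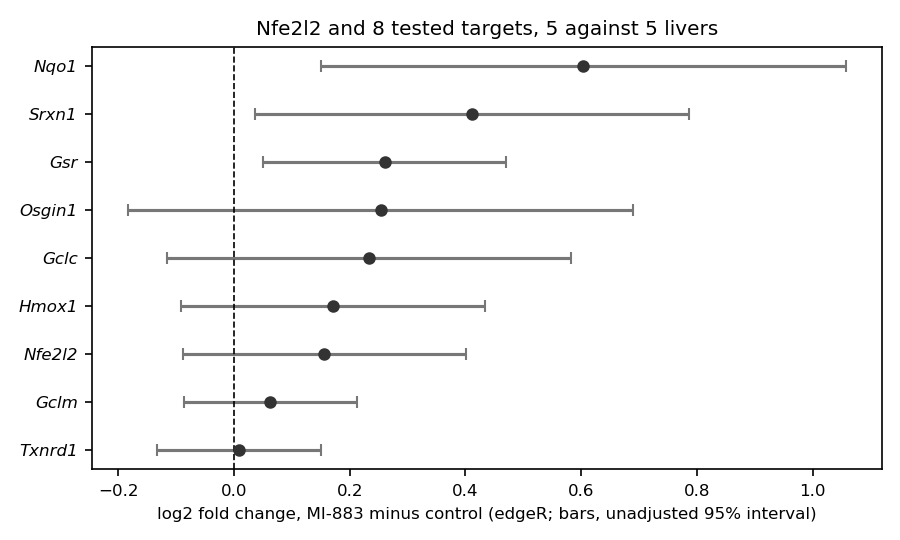
Log2 fold change of *Nfe2l2* and the 8 tested targets, MI-883 minus control, on the horizontal axis, with points for the edgeR estimate and bars for the unadjusted 95% interval. All 9 points lie at or to the right of 0, and the intervals of *Nqo1*, *Srxn1* and *Gsr* exclude 0 before adjustment over all tested genes, while none of the 9 had an adjusted P under 0.05.

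Divided by the exon length of each gene, the control levels ran from 59.5 ± 10.4 CPM per kb for *Gclc* and 54.6 ± 16.0 for *Osgin1* down to 6.52 ± 1.81 for *Nqo1* and 0.0124 ± 0.0104 for *Slc7a11* (S.D., n = 5). In between stood *Gsr* at 30.3 ± 4.66, *Nfe2l2* at 24.9 ± 3.25, *Srxn1* at 22.8 ± 5.39, *Gclm* at 21.1 ± 1.61, *Txnrd1* at 19.6 ± 1.11 and *Hmox1* at 13.5 ± 1.26 CPM per kb. *Gclc* and *Osgin1* overlapped from liver to liver, and so did each neighbouring pair from *Gsr* to *Txnrd1*. *Osgin1* (lowest control liver 37.2) lay above *Gsr* (highest 36.6), *Hmox1* lay below *Txnrd1*, and *Nqo1* below *Hmox1*, in all 5 control livers. Exon lengths are those of all annotated exons of a gene joined, and the levels depend on that choice.

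The genes differed in how much they varied between livers of one group. The S.D. of log2 CPM within groups was 0.08 for *Txnrd1* and 0.09 for *Gclm*, and 5.72% and 10.2% of all tested genes varied less. It was 0.40 for *Nqo1* and 0.39 for *Osgin1*, where 83.1% and 82.2% of genes varied less, and the median over all tested genes was 0.18. *Srxn1* and *Gclc* were also in the upper part, at 0.33 and 0.30, while *Gsr*, *Nfe2l2* and *Hmox1* were near the middle at 0.17, 0.20 and 0.22.

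The same few livers stood at the ends of their group for several of the genes. Control liver 1 was the highest control in 7 of the 9 tested genes, against 21.8% of all tested genes, and control liver 5 the lowest in 6 of the 9, against 23.3%. Among treated livers, MI-883 liver 4 was the lowest in 6 of the 9 (22.6% of all genes) and MI-883 liver 3 the highest in 4 of the 9 (20% of all genes). Averaged over the 9 genes, the log2 level relative to the control mean was 0.28 in control liver 1 and -0.0106, -0.0016, -0.099 and -0.170 in control livers 2 to 5. In MI-883-treated livers it was 0.23, 0.12, 0.41, 0.06 and 0.37 for livers 1 to 5. Control liver 1 therefore stood above 3 of the 5 treated livers on this average, and the other controls stood below all 5.

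The treated livers that were highest in these genes stood at different ends for the CAR markers. MI-883 liver 3, the highest in *Nfe2l2*, *Gclc*, *Txnrd1* and *Srxn1*, was the lowest treated liver in all 4 CAR marker genes. In *Cyp2c55* it was so by a small margin, at 171 CPM against 173 CPM in MI-883 liver 1. The margin was also small in *Cyp2c65*, at 1.26 CPM (34 counts) against 1.39 CPM (32 counts) in MI-883 liver 4. Of all tested genes, 22.1% were lowest in MI-883 liver 3 among treated livers. MI-883 liver 5, the highest in *Nqo1* and *Gsr*, was the highest treated liver in 2 of the 4, *Cyp2c55* (236.3 CPM, against 235.6 CPM in MI-883 liver 2) and *Cyp2c65*. A link between the 2 sets of genes was not tested. With control liver 1 left out, the log2 fold changes were 0.72 for *Nqo1* (edgeR adjusted P = 0.128), 0.34 for *Gsr* (0.0807 by the same test) and 0.57 for *Srxn1*, and still none of the 9 genes was called.

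**Figure D3:**
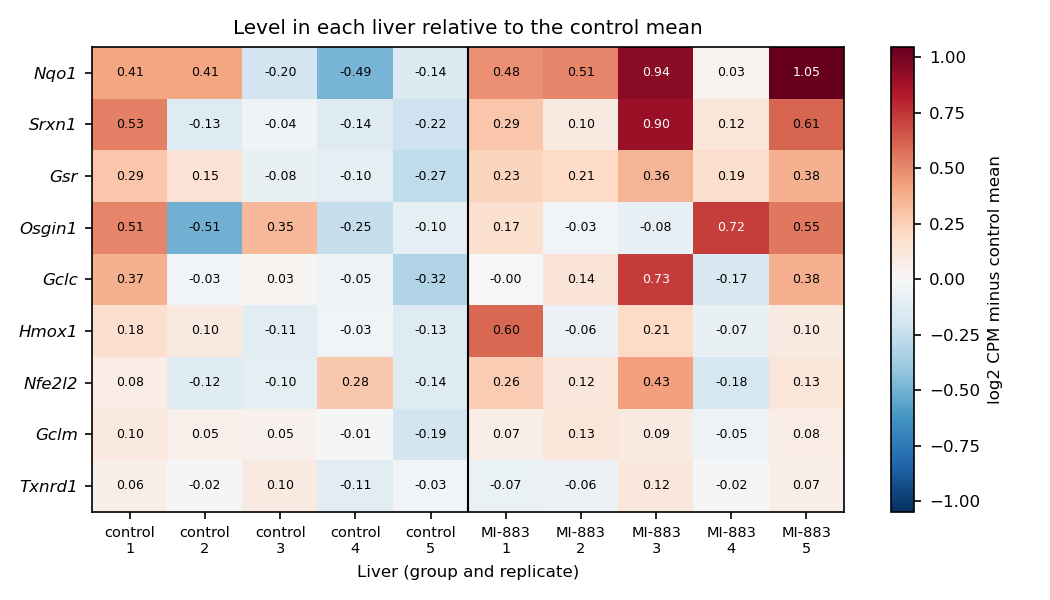
Log2 CPM of the 9 tested genes (rows) in each of the 10 livers (columns) minus the mean of the 5 control livers, with the value printed in each cell and colour running from blue (below) to red (above). Control liver 1 is red in most rows and MI-883 liver 4 is pale in most rows except *Osgin1*, while MI-883 livers 3 and 5 are the reddest columns, with averages over the 9 genes of 0.41 and 0.37.

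Genes around this core were taken from 7 lists of 78 genes in all, 77 of which were tested. Outside the drug-processing list, 53 genes were tested, and edgeR called none of them. Their median log2 fold change was -0.0023, and 26 were above and 27 below 0. An unadjusted edgeR P under 0.05 was found for 14 of the 53, against 15.6% of all tested genes. DESeq2 called 7 of the 53, 4 higher and 3 lower, against 3.5% of all genes. These 7 are named in what follows after their values were seen.

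Among 12 genes that control Nrf2, *Keap1* had 46.5, 46.0, 51.6, 40.6 and 43.5 CPM in control and 48.8, 52.3, 49.0, 49.6 and 48.3 CPM in MI-883-treated livers. All 5 treated livers lay above the control median, inside or just above the control range. The means were 45.6 ± 4.10 and 49.6 ± 1.56 CPM (log2 fold change 0.12, edgeR adjusted P = 0.424). *Cul3*, the scaffold of its ligase, had a log2 fold change of 0.01 (edgeR adjusted P = 0.951). The median of the 12 genes was 0.0049. The ligase's RING subunit *Rbx1* was lower by DESeq2 (adjusted P = 0.0343) and not by edgeR (0.115), with all treated livers below all controls and a log2 fold change of -0.26.

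Of 13 tested genes of glutathione handling, edgeR called none, and their median was -0.04. *Gss*, which completes glutathione, had a log2 fold change of 0.08 and *Ggct*, which breaks down its precursor, -0.19 (edgeR adjusted P = 0.754 and 0.387). *Cbs*, which starts the route from homocysteine to cysteine, went from 333 ± 53.2 to 253 ± 22.6 CPM, and DESeq2 (adjusted P = 0.0188) but not edgeR (0.111) called it lower. The glutathione-degrading enzyme *Ggt1* had 2, 3, 2, 0 and 0 counts in control and 5, 24, 14, 9 and 5 counts in treated livers. DESeq2 called *Ggt1* higher and edgeR did not (adjusted P = 0.0639), and all control livers were at or under the floor of 3 counts.

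The 11 other thioredoxin and peroxiredoxin genes had a median of -0.08, with 8 below 0 and none called by edgeR. *Txn1* and *Txn2*, the cytosolic and mitochondrial thioredoxins, had log2 fold changes of -0.07 and -0.05 (edgeR adjusted P = 0.766 and 0.831). Mitochondrial thioredoxin reductase, *Txnrd2*, was 47.1 ± 3.98 CPM in control and 38.0 ± 3.74 CPM in treated livers. DESeq2 called *Txnrd2* lower (adjusted P = 0.0291) and edgeR did not (0.105), whereas its cytosolic counterpart *Txnrd1* was level in both groups.

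The 6 genes listed for NADPH supply, not all of which encode enzymes that form NADPH themselves, had log2 fold changes above 0, with a median of 0.30. An unadjusted edgeR P under 0.05 was found for 3 of the 6, against 15.6% of all tested genes. *G6pdx* and *Pgd*, the dehydrogenases of the pentose phosphate pathway, had log2 fold changes of 0.37 and 0.34 (edgeR adjusted P = 0.356 and 0.284). *Tkt*, transketolase of the same pathway, went from 192 ± 24.7 to 235 ± 13.7 CPM. It was called higher by DESeq2 (adjusted P = 0.0484) and not by edgeR (0.156), except without control liver 1 (edgeR adjusted P = 0.0451).

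In heme and iron handling, the median of 7 genes was -0.02 and edgeR called none. *Hmox2*, the constitutive heme oxygenase, had a log2 fold change of -0.02 and *Blvra*, which makes bilirubin, -0.21 (edgeR adjusted P = 0.934 and 0.224). The heme carrier *Slc48a1* had 49.3 to 61.7 CPM in control and 65.0 to 78.2 CPM in treated livers, without overlap. Its edgeR adjusted P was 0.0506, just short of the threshold, and 0.00204 with DESeq2. In 5 of the 16 edgeR alternatives *Slc48a1* was called higher, with adjusted P of 0.0348 to 0.0488. *Blvrb*, the second biliverdin reductase, was called by DESeq2 alone (181 ± 18.8 to 219 ± 11.2 CPM, adjusted P = 0.0305). The 4 genes that remove superoxide and hydrogen peroxide had a median of 0.03 and no call by either tool, with *Sod1* at -0.19 and *Sod2* at -0.05 (edgeR adjusted P = 0.507 and 0.769).

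The 24 conjugation, reduction and export genes that Nrf2 shares with CAR held all the edgeR calls among the 77 genes. Of the 24, 10 rose, or 41.7%, against 0.764% of all tested genes, and none fell. The median log2 fold change of the list was 0.53, with 22 of 24 above 0. This list was written for its link to both factors with earlier results of these data known, so that its count is no independent evidence of its direction. The 2 groups of livers did not overlap in any of the 10 called genes, while 2.05% of all tested genes lay wholly above the control livers. These 10 were called from the same values, so that their separation adds no support to the calls.

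Mu-class glutathione transferases join glutathione to reactive compounds, and 4 of them were among the called genes. *Gstm3* had 551, 299, 123, 234 and 138 CPM in control and 2059, 2675, 2335, 2670 and 2955 CPM in MI-883-treated livers. The lowest treated liver was far above control liver 1, the highest of a widely scattered control group. Its log2 fold change was 3.24 with a standard error of 0.36 (edgeR adjusted P = 0.000526). *Gstm1*, *Gstm2* and *Gstm4* rose by log2 fold changes of 1.08, 1.55 and 0.59 (edgeR adjusted P = 0.00977, 0.000112 and 0.0217). Transcripts of this family resemble each other. Of the 100-base stretches of *Gstm3*, 13.8% also occur in other genes, most of all in *Gm8834*. For *Gstm1* the share was 5.86%, most of all with *Gstm2-ps1*, and it was 0.357% for *Gstm2* and 0% for *Gstm4*.

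*Abcc4*, an exporter of conjugates at the sinusoidal membrane, had 4.55, 3.65, 2.82, 3.13 and 2.98 CPM in control and 15.7, 24.0, 18.8, 14.3 and 21.8 CPM in treated livers. Here the groups were separated by a wide gap. The log2 fold change was 2.45 with a standard error of 0.17 (edgeR adjusted P = 7.2e-06). *Akr1b7*, an aldose reductase family member, went from 1.66 ± 0.60 to 13.9 ± 4.75 CPM (log2 fold change 3.05, edgeR adjusted P = 0.000112), and 27.2% of its exon length overlaps a gene on the opposite strand.

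The remaining called genes were *Ephx1* (microsomal epoxide hydrolase), *Ces2a* (a carboxylesterase), *Cyp2a5* (a cytochrome P450) and *Abcc3* (a conjugate exporter). Their log2 fold changes were 0.61, 0.98, 0.77 and 0.46 (edgeR adjusted P = 0.0182, 0.00463, 0.0281 and 0.0282). Reads of *Cyp2a5* and *Ces2a* can be shared with relatives, since 12.1% and 8.13% of their 100-base stretches occur elsewhere. *Gsta1*, an alpha-class transferase, was 13.6 ± 13.5 CPM in control and 41.4 ± 8.02 CPM in treated livers (log2 fold change 1.58, edgeR adjusted P = 0.168). Control liver 1 alone had 35.4 CPM of *Gsta1* and the other controls 2.89 to 17.7 CPM. *Gsta2* had a log2 fold change of 0.12 (edgeR adjusted P = 0.860). DESeq2 also called *Gstp1* and *Ugdh* higher (adjusted P = 0.0286 and 0.0156), 2 genes named after their values were seen.

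Control liver 1 was the highest control in 13 of these 24 genes, as it was in 7 of the 9 tested Nrf2 genes. Without it, 16 genes of all 77 were called by edgeR in place of 10, and the additions were *Gsta1*, *Cbr3*, *Ugdh*, *Tkt* and *Slc48a1*, which were higher, and *Cbs*, which was lower. Without control liver 3 or without MI-883 liver 5 the number was 6. *Gstm1*, *Gstm2*, *Gstm3*, *Akr1b7*, *Abcc4* and *Ces2a* were called whichever liver was left out, and *Gstm4*, *Ephx1*, *Abcc3* and *Cyp2a5* in 6, 7, 3 and 4 of the 10 omissions. In the promoter windows, the TGACNNNGC letters were found in 1 of the 9 called genes with a RefSeq entry, *Abcc4*, against 14% of all genes with an entry. Elements outside these windows were not searched.

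**Figure D4:**
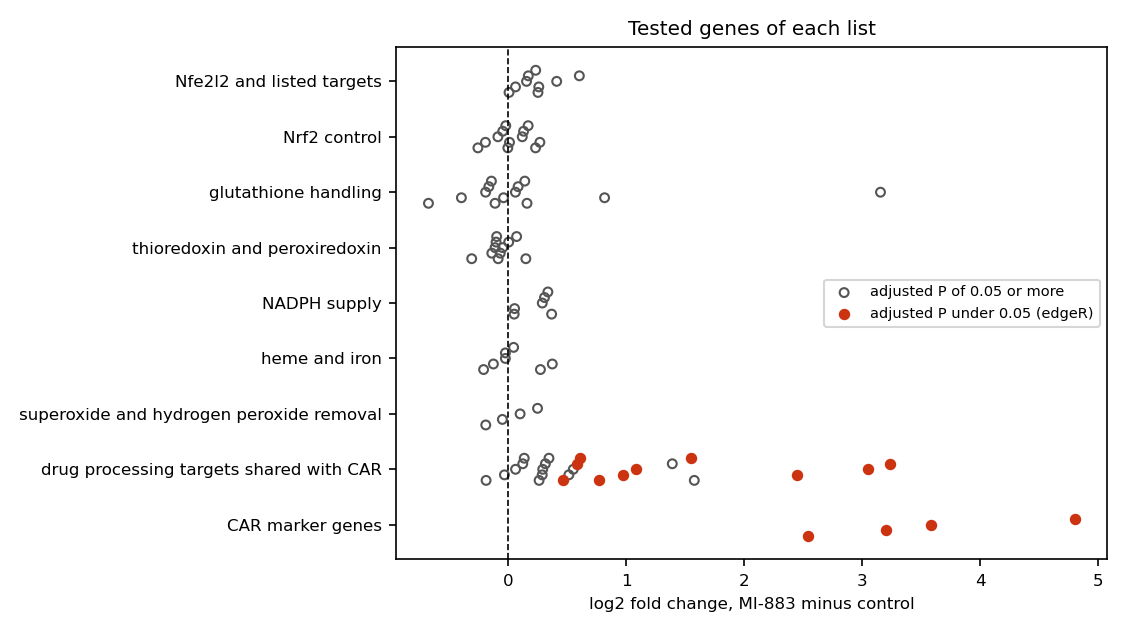
Log2 fold change, MI-883 minus control, of each tested gene (points) in *Nfe2l2* with its targets, the 7 pathway lists and the CAR markers (rows). The dashed line is at 0, points are spread vertically only to part them, and filled red points, the genes with an edgeR adjusted P under 0.05, lie in the drug-processing list (10 of 24) and among the CAR markers (4 of 4).

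Markers of the cells that make up the liver were read from the same libraries, and edgeR and DESeq2 called none of the 45 tested. An unadjusted edgeR P under 0.05 was found for 10 of the 45, against 15.6% of all tested genes. The 6 hepatocyte markers all had log2 fold changes below 0, with a median of -0.12 and sums of 74529 to 86553 CPM in control and 64695 to 78224 CPM in treated livers. *Alb* and *Ttr* had log2 fold changes of -0.16 and -0.25 (edgeR adjusted P = 0.514 and 0.257). The summed markers of stellate cells were 236 to 384 CPM in control and 276 to 458 CPM in treated livers, and those of endothelial cells 109 to 148 and 118 to 171 CPM. Leukocyte markers summed to 9.74 to 20.3 and 12.8 to 22.0 CPM, bile duct markers to 25.0 to 116 and 35.1 to 190 CPM, and erythroid markers to 130 to 195 and 91.2 to 172 CPM. The ranges of the 2 groups overlapped for each of these cell types, and their part in the levels of the Nrf2 genes was not tested. Each sum follows its most abundant genes. *Spp1* made up 108 of the 116 CPM of bile duct markers in control liver 1 and 180 of 190 CPM in MI-883 liver 3. *Alas2* was the largest part of the erythroid sum, at 69.5 to 98.8 CPM in control and 63.8 to 94.8 CPM in treated livers. Both genes are named after their values were seen.

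Outside hepatocytes, the median log2 fold change of each marker list but the erythroid one was above 0, and edgeR called none of the markers. Log2 fold changes were above 0 in 7 of 8 stellate (median 0.27), 5 of 6 endothelial (0.24), 5 of 5 bile duct (0.55), 5 of 7 leukocyte (0.04) and 7 of 9 Kupffer cell markers (0.04), and in 0 of 4 tested erythroid markers (-0.54). An unadjusted P under 0.05 was found for 3 stellate and 3 endothelial markers, for 1 each of the bile duct, Kupffer cell and erythroid markers and for no leukocyte marker. Over all tested genes, 15.6% had such a P. The first listed pair of a list need not follow its median. *Clec4f* and *Vsig4* of Kupffer cells had log2 fold changes of -0.18 and 0.10, *Ptprc* and *Cd3e* of leukocytes 0.04 and -0.51, and *Lrat* and *Reln* of stellate cells 0.02 and 0.23. *Stab2* and *Clec4g* of endothelial cells had 0.07 and -0.13, *Krt19* and *Krt7* of bile ducts 0.55 and 0.76, and *Hba-a1* and *Hba-a2* of red cells -0.50 and -0.71. The edgeR adjusted P of these 12 genes lay between 0.224 and 0.974.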

How the data were processed

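RNA of 10 mouse livers was sequenced with a directional kit. According to the paper and the submitters' processing notes, reads were trimmed with fastp 0.23.0, aligned to the mouse genome (mm10) with STAR and counted with featureCounts, and the authors deposited raw counts per Entrez gene without normalization. The gene annotation and strand setting are not given in the sources used here. Of 16647 genes, 16644 matched RefSeq GRCm38.p6, which gave symbols, positions, exons and promoters.

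Livers were grouped by the treatment in their labels. Genes with at least 60 counts summed over 10 livers (13219) entered the quasi-likelihood test of edgeR 4.0.16 (R 4.3.3, TMM scaling, Benjamini-Hochberg adjustment, threshold 0.05). The standard error is the log2 fold change divided by the square root of F. Single genes were also compared by an exact permutation test (two-sided, on mean log2 CPM with a prior count of 2), whose smallest P is 0.00794. Alternatives were DESeq2 1.42.0 (Wald test), other size factors and filters, a replicate block and leaving out each liver. The pipeline was tested on simulated data.

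The genes and lists were chosen with earlier results of these data known. Named genes are the 10 studied genes, list genes with an adjusted P under 0.05, the first 2 genes of each list, the CAR markers and the 3 genes nearest to *Nfe2l2*; others are said to be named after their values were seen.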

Additional observations from a re-analysis of the deposited data

Results flagged for a closer look

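*Srxn1* in control liver 1 was far from the other control livers, at 91.2 CPM against 61.4 CPM in the nearest one. This gap made up a share of 0.807 of the range of the 5 control livers, above Dixon's critical value of 0.71. It was the 1 liver found apart in 20 groups that were checked, the 10 studied genes in both conditions, and chance alone sets apart about 1 in 20 groups. Control liver 1 was also the highest control in 7 of the 9 tested genes.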

How the results depend on the processing

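None of the 9 tested genes around Nrf2 was called under any of the 17 alternatives, and 8 of them kept a log2 fold change above 0 in all. Leaving out 1 liver in turn gave log2 fold changes of -0.0201 to 0.0327 for *Txnrd1*, which was below 0 without control liver 4 (-0.0182), MI-883 liver 3 (-0.0201) or MI-883 liver 5 (-0.0064). The adjusted P of *Nqo1* ranged from 0.0894 to 0.392, that of *Gsr* from 0.0807 to 0.402 and that of *Srxn1* from 0.0804 to 0.535. With the Wald test of DESeq2, 463 genes were called in place of 136, and 19 pathway genes in place of 10. Without 1 liver, edgeR called 62 (without MI-883 liver 5) to 208 (without control liver 1) genes in all and 6 to 16 pathway genes. The count of all genes was also more than 1.5 times lower without control liver 2, 3, 4 or 5 or MI-883 liver 2 (87, 81, 75, 68 and 70 genes). Other scalings and filters called 130 to 144 genes. Replicate numbers did not pair the livers, since same-numbered livers deviated with correlations of 0.36, -0.121, -0.102, 0.0761 and 0.079, and with a replicate block 89 genes were called in all, 7 pathway genes and 1 cell type marker, *Hba-a2* (log2 fold change -0.80, edgeR adjusted P = 0.0469). The causes of these shifts were not tested. Of 388 values recomputed for single genes, 362 kept direction and side of the threshold, 23 lost their call and 3 changed sign. Depth limited *Slc7a11*, which had 1 to 18 counts per liver and could be fitted only without a minimum (log2 fold change 0.61, edgeR adjusted P = 0.69).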
